A study of Homo sapiens with 20 samples.

Results

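The 34 genes described here encode membrane carriers of amino acids and of monocarboxylates such as lactate. They were chosen by name from the 27896 gene symbols of a count table. No rule on measured values was used, but earlier results of these data were known when they were chosen. Each symbol was represented by the transcript with the most reads. The cells were HEK293-GR, a line derived from human embryonic kidney that constitutively expresses the glucocorticoid receptor, GR, and all were kept in steroid-depleted medium. Poly(A) RNA was sequenced in 4 groups of 4 libraries. The siBCOR dex group received a pool of siRNAs (20 nM, 72 h) that target BCOR, a corepressor of transcription, and dexamethasone, a synthetic glucocorticoid, at 100 nM for the last 6 h, and the siBCOR vehicle group received the same RNA pool and ethanol. The siNON dex and siNON vehicle groups received a non-targeting pool with dexamethasone or ethanol. BCOR binding was measured in the same line by ChIP-seq after 1 h of dexamethasone or ethanol, with 2 libraries for each treatment. The line is a single transformed line with added receptor, so both features are shared by every group.

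Amino acids cross membranes through carriers of the solute carrier (SLC) superfamily, which couple uptake to sodium or proton gradients, exchange one amino acid for another, or let substrates flow down their gradient. Heteromeric carriers pair a transporting light chain of the SLC7 family with a heavy chain of the SLC3 family that brings it to the cell surface. Monocarboxylate transporters of the SLC16 family move lactate and pyruvate together with protons. Uptake of essential amino acids feeds protein synthesis and the mTORC1 kinase, and shortage of amino acids raises the transcription factor ATF4, which acts on many carrier genes through a composite C/EBP-ATF element.

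Promoter sequences from RefSeq (GRCh38.p14), covering 250 bases before to 50 bases after a start site, were found for 27 members with 55 listed starts. SLC1A2, SLC3A1, SLC6A6, SLC6A15, SLC7A2, SLC7A11 and SLC16A1 had no listed promoter, so they were not searched for any motif. Of these 55 windows, 6 held the C/EBP-ATF core TGATGNAA on either strand, against 3.62% of 35116 listed windows of all genes. They belonged to SLC1A3, SLC1A4, SLC1A5, SLC38A1, SLC3A2 and SLC7A1. The E-box CACGTG was present in 9 member windows, those of SLC1A5, SLC25A22, SLC36A1, SLC38A5, SLC38A7, SLC43A1, SLC7A5, SLC7A7 and SLC7A8, against 7.26% of all windows. The median GC content was 65.0% in member windows and 58.7% in all windows, and its part in these counts was not tested. Windows of a gene with several starts were counted separately, and some overlapped. The letters of a glucocorticoid response element, GNACA and TGTNC set 3 bases apart, were found in 0 member windows and in 0.390% of all windows. No 2 of the 3 motifs overlapped in a member window, and a match is given as a description of the letters only. Several of the named genes, such as SLC1A3, SLC3A2 and SLC7A8, also have windows at other starts without the motif. In SLC1A5 the C/EBP-ATF core and the E-box lay in different windows. Windows were not matched to the hg19 start of the transcript whose RNA and peaks are given, so a motif can lie at another start. The following 5 windows belong to members whose RNA or BCOR peaks are described below. Capitals mark the C/EBP-ATF core in SLC1A4 (minus strand of the window) and SLC7A1, and the E-box in SLC7A5 and SLC36A1. The SLC25A15 window holds none of the motifs and is shown because a BCOR peak began 4 bases from the hg19 start of that gene's chosen transcript. That start can differ from the start of the printed window. The SLC1A4 and SLC36A1 windows are each 1 of 2 listed starts, and the others are the only start listed. Which start the RNA reads came from was not determined.
SLC1A4, chr2:64989149-64989448, plus strand: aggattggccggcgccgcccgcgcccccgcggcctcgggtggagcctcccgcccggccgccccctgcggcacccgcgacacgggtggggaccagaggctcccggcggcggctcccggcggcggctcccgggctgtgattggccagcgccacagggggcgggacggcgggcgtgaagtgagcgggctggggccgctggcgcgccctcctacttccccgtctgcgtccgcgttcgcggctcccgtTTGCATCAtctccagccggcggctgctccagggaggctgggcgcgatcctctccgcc
SLC7A1, chr13:29595639-29595938, minus strand: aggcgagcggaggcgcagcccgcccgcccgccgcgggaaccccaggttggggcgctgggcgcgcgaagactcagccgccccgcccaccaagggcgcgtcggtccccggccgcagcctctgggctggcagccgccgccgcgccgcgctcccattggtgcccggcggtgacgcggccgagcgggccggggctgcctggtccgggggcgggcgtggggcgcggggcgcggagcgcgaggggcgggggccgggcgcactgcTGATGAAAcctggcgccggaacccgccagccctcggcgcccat
SLC7A5, chr16:87869458-87869757, minus strand: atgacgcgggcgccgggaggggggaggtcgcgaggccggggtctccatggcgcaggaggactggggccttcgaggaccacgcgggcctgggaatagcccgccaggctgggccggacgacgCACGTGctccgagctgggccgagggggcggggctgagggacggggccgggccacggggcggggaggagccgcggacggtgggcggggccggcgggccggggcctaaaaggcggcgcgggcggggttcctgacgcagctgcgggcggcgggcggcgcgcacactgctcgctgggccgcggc
SLC36A1, chr5:151447353-151447652, plus strand: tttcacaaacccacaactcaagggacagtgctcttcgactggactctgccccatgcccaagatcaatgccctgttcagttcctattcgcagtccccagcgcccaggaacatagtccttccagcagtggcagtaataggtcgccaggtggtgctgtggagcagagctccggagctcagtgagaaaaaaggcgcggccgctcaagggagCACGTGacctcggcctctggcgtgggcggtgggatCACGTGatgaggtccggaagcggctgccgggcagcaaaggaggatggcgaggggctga
SLC25A15, chr13:40789361-40789660, plus strand: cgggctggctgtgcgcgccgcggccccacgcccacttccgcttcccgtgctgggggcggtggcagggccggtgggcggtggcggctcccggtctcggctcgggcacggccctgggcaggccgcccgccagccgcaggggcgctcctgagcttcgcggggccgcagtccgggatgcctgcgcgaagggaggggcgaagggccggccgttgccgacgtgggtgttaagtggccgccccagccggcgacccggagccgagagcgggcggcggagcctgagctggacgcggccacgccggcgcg

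Counts over the chosen transcripts ran from 18580291 to 28054809 per library. The target BCOR averaged 14.7 ± 0.706 CPM (counts scaled to the effective size of the library) in siBCOR dex and 22.4 ± 0.795 CPM in siBCOR vehicle, against 93.8 ± 15.9 CPM in siNON dex and 196.1 ± 29.4 CPM in siNON vehicle (SD, n = 4 each). GR itself (NR3C1) averaged 864, 1107, 706 and 998 CPM in the same order. Some libraries stood apart from their group. The root mean square deviation from the group mean over all tested genes was 0.280 on the log2 scale in siNON dex replicate 4, against 0.156 to 0.198 in the other replicates. It was 0.266 in siNON vehicle replicate 3, against 0.179 to 0.187, and 0.257 in siBCOR vehicle replicate 2, against 0.156 to 0.195. The siNON libraries among these 3 are called the deviating siNON libraries below, and where several libraries are named as left out, each was left out alone unless both are stated. The HEK293 line's markers (NEFM, NEFL, INA, VIM, KRT8 and KRT18, all 6 tested) summed to 1110 to 1170 CPM in siBCOR dex, 1130 to 1290 in siBCOR vehicle, 1370 to 1460 in siNON dex and 1250 to 1490 in siNON vehicle. With hormone 1 of the 6 rose and 3 fell in siBCOR cells, and 2 rose and 3 fell in siNON cells, where 23.0% and 19.4% of all genes passed. After depletion 3 were lower in dexamethasone and 2 in vehicle, and 0 were higher, where 39.5% and 17.1% of all genes passed. Markers of immune cells summed to 1.07 to 1.89 CPM, of fibroblasts to 26 to 49.8 CPM and of the proximal tubule to 31.8 to 66 CPM. The summed level of the proximal tubule list was lower with dexamethasone, at 33.3 to 35.6 CPM in siBCOR dex against 54.2 to 66 CPM in siBCOR vehicle, and at 31.8 to 37.9 CPM in siNON dex against 49.8 to 62.3 CPM in siNON vehicle. Of its 3 tested genes only LRP2, an endocytic receptor, fell with hormone in both kinds of cell, the other 2 did not pass, and the list's median log2 change was -0.01 in siBCOR cells and 0.11 in siNON cells. No marker of these lists was at 0 in all libraries. The part of these lists in the transporter results was not tested.

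The levels of the transporters differed widely. Per kb of transcript, the glutamine and neutral amino acid exchanger SLC1A5 was the highest member in each group, with 109.6, 177, 158 and 216 CPM per kb in siBCOR dex, siBCOR vehicle, siNON dex and siNON vehicle. In siNON vehicle cells the heavy chain SLC3A2 (73.1 CPM per kb), the lactate carrier SLC16A1 (59.7), the creatine carrier SLC6A8 (45.6) and the glutamine carrier SLC38A2 (43.2) came next. At the other end were SLC1A2 (0.332), SLC7A7 (0.423), SLC16A3 (0.738) and SLC38A5 (0.0932 CPM per kb). SLC38A5, a carrier of glutamine and other neutral amino acids, had at most 0.289 CPM in any library and was not tested, which left 33 tested members among 16432 tested genes.

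**Figure D1:**
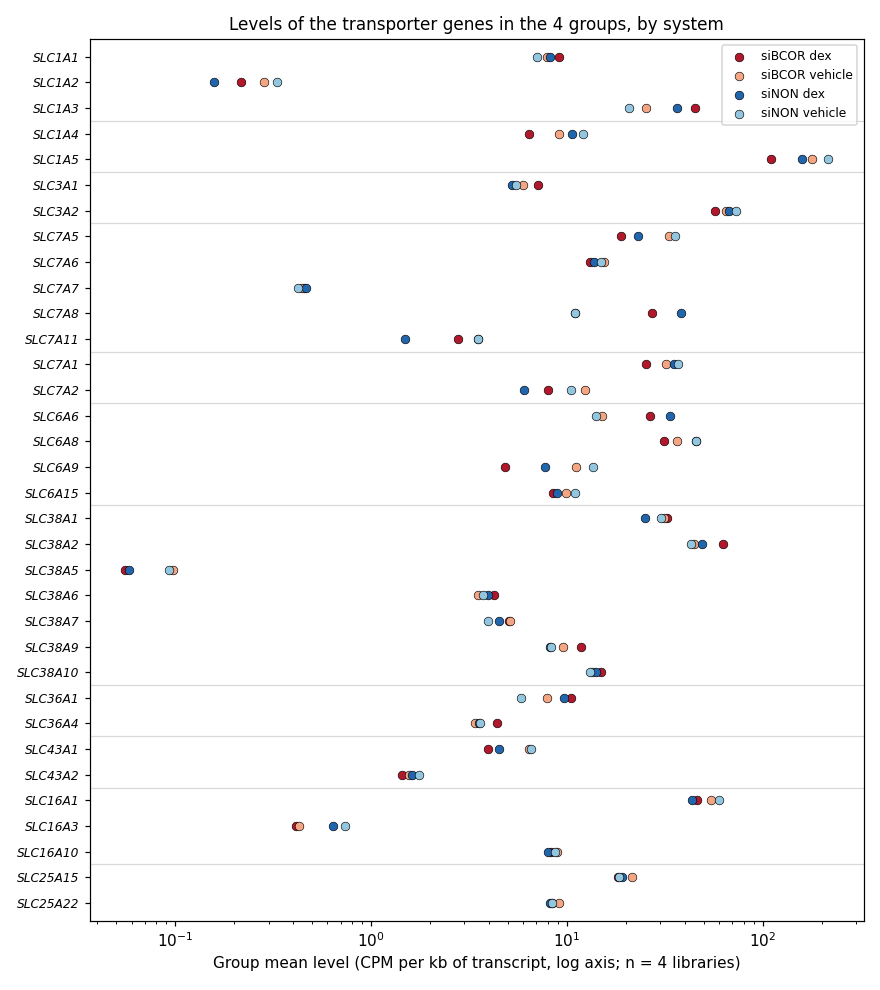
Mean level of each of the 34 transporter genes in siBCOR dex, siBCOR vehicle, siNON dex and siNON vehicle cells (n = 4 libraries each), in CPM per kb of transcript on a log axis, with grey lines between transporter systems. SLC1A5 lay highest in all 4 groups and SLC38A5 lowest.

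The first comparisons asked how dexamethasone changed the transporters with and without depletion of BCOR. In siBCOR cells 14 of the 33 tested members passed the test at an adjusted p of 0.05, with 5 higher and 9 lower, where 23.0% of all genes did (10.5% higher and 12.5% lower). In siNON cells 14 members passed as well, again 5 higher and 9 lower, where 19.4% of all genes did (10.7% higher and 8.64% lower). The carriers of large neutral amino acids SLC7A8, of taurine SLC6A6, of glutamate SLC1A3 and of small amino acids SLC36A1 rose in both kinds of cell. SLC7A5, SLC43A1, SLC1A5, SLC7A2 and SLC6A9, which carry leucine and other large neutral amino acids, glutamine, arginine or glycine, fell in both, and no member rose in one and fell in the other. The difference between the 2 responses, tested as an interaction, passed for 0 members, where 0.0974% of all genes passed. The median log2 fold change of the tested members was -0.11 in siBCOR cells, against 0.00347 over all genes, and -0.08 in siNON cells, against -0.00443 over all genes. Libraries of the 2 treatments did not overlap for 21 members in siBCOR cells (30.7% of all genes) and for 9 members in siNON cells (19.9% of all genes). In RNA from whole cultures, fewer cells that express a gene and less RNA per cell cannot be told apart.

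**Figure D2:**
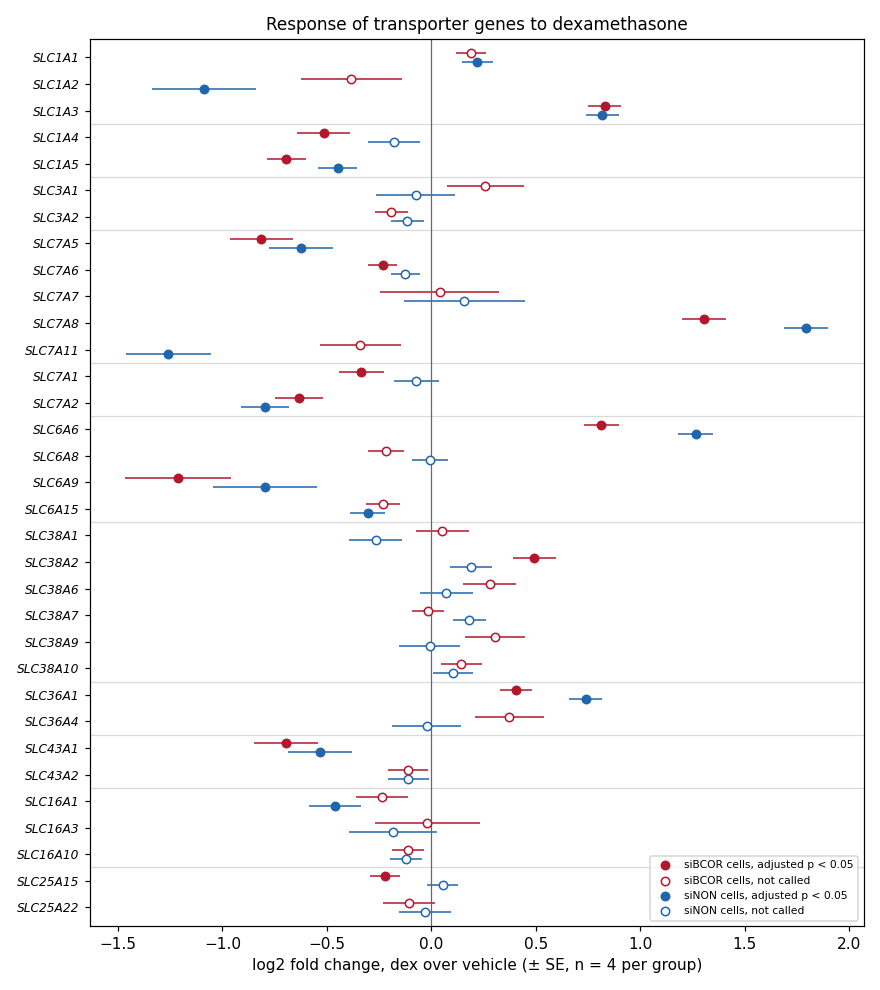
Log2 fold change of 33 transporter genes, dexamethasone over vehicle, in siBCOR cells (red) and siNON cells (blue), with SE (n = 4 libraries per group), filled where the adjusted p was under 0.05 and grouped by transporter system. SLC7A8 lay farthest to the right in both kinds of cell, and SLC7A11 farthest to the left in siNON cells and SLC6A9 in siBCOR cells.

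The second pair of comparisons asked how the transporters differed after BCOR depletion. In dexamethasone 15 members passed the test, 6 higher and 9 lower in siBCOR cells, where 39.5% of all genes did (20.7% higher and 18.8% lower), so the share of members was near that of all genes. In vehicle 8 members passed, 4 higher and 4 lower, where 17.1% of all genes did (8.87% higher and 8.23% lower). SLC1A3 was higher in siBCOR cells in both media, and the neutral amino acid exchangers SLC1A4 and SLC1A5, the creatine carrier SLC6A8 and the lactate carrier SLC16A3 were lower in both. The comparisons share libraries with those of the hormone, so their values are given side by side and not as separate evidence. The count in vehicle depended on single libraries. It was 3 without siBCOR vehicle replicate 1, where 10.9% of all genes passed, and 4 without siBCOR vehicle replicate 3 or siNON vehicle replicate 1, 2 or 4, where 11.7% to 14.7% did. It was 5 without siBCOR vehicle replicate 4 (13.2% of all genes) and 11 without siBCOR vehicle replicate 2 (20.9%). With upper-quartile scaling it was 5 (14.0% of all genes), and in a fit of only the compared groups 3 (9.61%). Libraries of siBCOR and siNON cells did not overlap for 14 members in dexamethasone (34.2% of all genes) and for 5 in vehicle (18.0% of all genes). The median log2 fold change of the members was 0.04 in dexamethasone, against 0.02 over all genes, and 0.01 in vehicle, against 0.02 over all genes. Across the 4 comparisons 25 members passed at least once. The other 8 tested members, SLC3A1, SLC7A7, SLC38A6, SLC38A10, SLC36A4, SLC43A2, SLC16A10 and SLC25A22, passed in none, although SLC3A1, SLC36A4, SLC38A6 and SLC43A2 passed under some of the alternatives given with them.

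**Figure D3:**
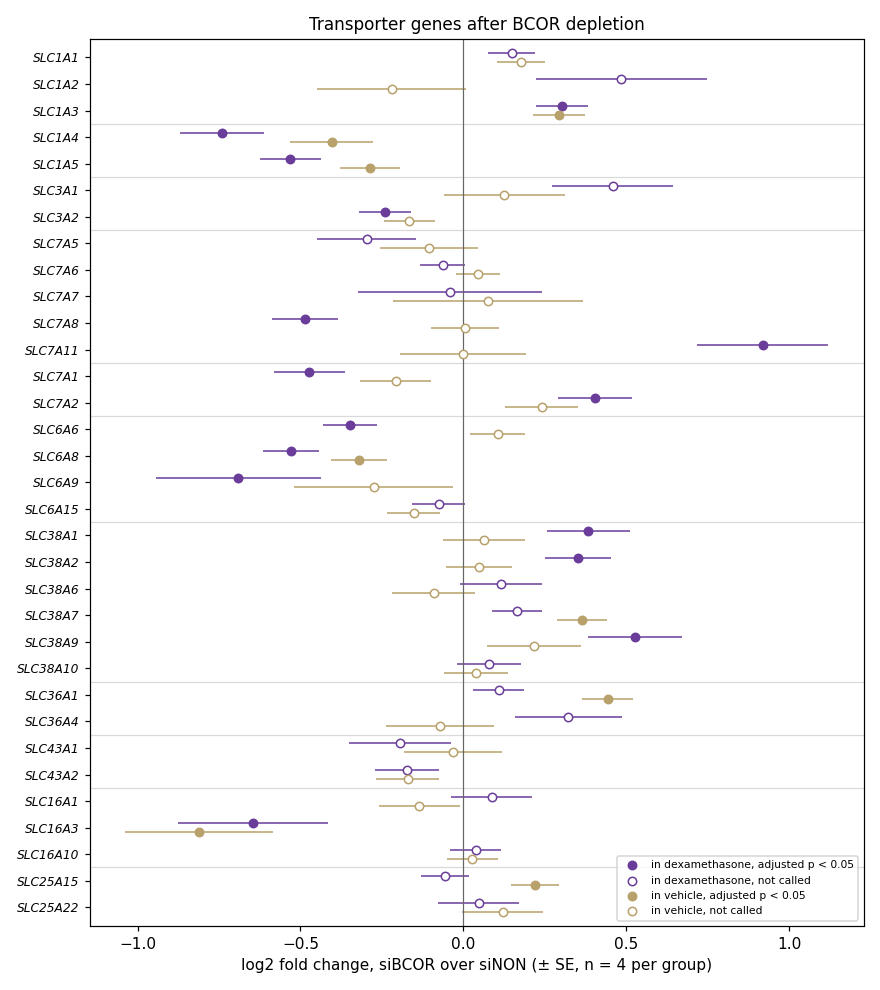
Log2 fold change of 33 transporter genes, siBCOR over siNON, in dexamethasone (purple) and in vehicle (tan), with SE (n = 4 libraries per group), filled where the adjusted p was under 0.05 and grouped by transporter system. In dexamethasone SLC7A11 lay farthest to the right and SLC1A4 farthest to the left.

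The light chains of the heteromeric carriers held members that moved in opposite directions with hormone. SLC7A8 (LAT2, hg19 chromosome 14, 23594504 to 23652869), which exchanges neutral amino acids, stood at 121, 117, 121 and 101 CPM in siBCOR dex, against 49.8, 47.1, 44.7 and 44.6 CPM in siBCOR vehicle. It stood at 168, 169, 172 and 134 CPM in siNON dex, against 52.4, 49.1, 36.5 and 47.6 CPM in siNON vehicle. Every dexamethasone library was above every vehicle library, and the rise was 2.47-fold in siBCOR cells (log2 1.30 ± 0.10, adjusted p = 4.78e-08) and 3.47-fold in siNON cells (log2 1.79 ± 0.11, adjusted p = 6.43e-10). Here and below, log2 stands for the log2 fold change, dexamethasone over vehicle or siBCOR over siNON, with its SE, and p was adjusted over all 16432 tested genes. Within dexamethasone, all 4 siBCOR libraries were below all 4 siNON libraries (log2 -0.49 ± 0.10, adjusted p = 0.00206), while the vehicle libraries overlapped (log2 0.01 ± 0.10, adjusted p = 0.983).

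SLC7A5 (LAT1, chromosome 16, 87863622 to 87903105), the main importer of leucine and other large neutral amino acids in proliferating cells, went the other way. Its libraries held 84.3, 88.8, 95.2 and 75.1 CPM in siBCOR dex, against 132, 194, 127 and 151 CPM in siBCOR vehicle, with no overlap. They held 105, 106, 123 and 87.7 CPM in siNON dex, against 163, 207, 121 and 159 CPM in siNON vehicle, where replicate 3 of each treatment overlapped. SLC7A5 fell in siBCOR cells (log2 -0.81 ± 0.15, adjusted p = 0.000742) and in siNON cells (log2 -0.62 ± 0.15, adjusted p = 0.00636). Depletion did not change it past the threshold in dexamethasone (log2 -0.30 ± 0.15, adjusted p = 0.126) or in vehicle (log2 -0.11 ± 0.15, adjusted p = 0.687). In dexamethasone it passed with a fit of only the compared groups or both deviating siNON libraries left out (log2 -0.41 to -0.32, adjusted p 0.0112 to 0.0265). SLC7A8 and SLC7A5 share one heavy chain, SLC3A2, which averaged 133 ± 1.54 CPM in siBCOR dex, 152 ± 18.7 in siBCOR vehicle, 157 ± 6.50 in siNON dex and 170.1 ± 16.01 in siNON vehicle (SD, n = 4 each). SLC3A2 did not pass the test with hormone (log2 -0.19 ± 0.08, adjusted p = 0.092 in siBCOR cells, log2 -0.12 ± 0.08, adjusted p = 0.353 in siNON cells) and was lower after depletion in dexamethasone (log2 -0.24 ± 0.08, adjusted p = 0.0256). This last call was lost without siBCOR dex replicate 1, 2 or 4 or siNON dex replicate 2 or 3 (log2 -0.24 to -0.22, adjusted p 0.0511 to 0.0773). In vehicle SLC3A2 did not pass (log2 -0.17 ± 0.08, adjusted p = 0.166), but it did without siBCOR vehicle replicate 2 or siNON vehicle replicate 3 (log2 -0.28 to -0.25, adjusted p 0.0162 to 0.0243), or with both deviating siNON libraries left out (log2 -0.28, adjusted p 0.0134).

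SLC7A11 (xCT, chromosome 4, 139085248 to 139163503), which brings in cystine in exchange for glutamate and so feeds glutathione synthesis, was the member that fell most with hormone in siNON cells. It held 28.7, 23.5, 27.9 and 27.4 CPM in siBCOR dex, against 32.1, 32.9, 34.3 and 36.7 CPM in siBCOR vehicle. In siNON cells it held 11.01, 12.9, 11.8 and 21.4 CPM with dexamethasone, against 24.8, 37.9, 46.9 and 26.5 CPM with vehicle. The siNON dex libraries were below all others, replicate 4 being the highest of them, and the siNON vehicle libraries ranged widely. The fall in siNON cells was 2.39-fold (log2 -1.26 ± 0.20, adjusted p = 0.000164), and the difference in siBCOR cells did not pass (log2 -0.34 ± 0.19, adjusted p = 0.22). In dexamethasone SLC7A11 was 1.89-fold higher in siBCOR cells (log2 0.92 ± 0.20, adjusted p = 0.00281). In siBCOR cells the 4 dexamethasone libraries were nevertheless below the 4 vehicle libraries, and the difference passed with a fit of only the compared groups or both deviating siNON libraries left out (log2 -0.35 to -0.33, adjusted p 0.00671 to 0.0221). In vehicle SLC7A11 averaged 33.99 ± 2.05 CPM in siBCOR cells and 34.01 ± 10.4 CPM in siNON cells. An antisense transcript, SLC7A11-AS1, overlaps it and had 4.90% as many reads, and the counting is not stated to use strand.

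The remaining light chains changed less. SLC7A6 (y+LAT2), which exchanges cationic for neutral amino acids, averaged 83.2 ± 1.58 CPM in siBCOR dex and 97.7 ± 9.39 CPM in siBCOR vehicle and was lower with hormone there (log2 -0.23 ± 0.07, adjusted p = 0.0206), a call lost without siBCOR dex replicate 2 or 4 or siBCOR vehicle replicate 1 or 3 (log2 -0.23 to -0.19, adjusted p 0.0504 to 0.0716). The overlapping gene SLC7A6OS had 23.3% as many reads as SLC7A6. SLC7A7 (y+LAT1), at 0.643 to 1.60 CPM per library, passed in no comparison. Nor did the heavy chain SLC3A1, at 9.37 to 18.98 CPM, although after depletion in dexamethasone (log2 0.46 ± 0.19, adjusted p = 0.0582) it passed without siBCOR dex replicate 2, siBCOR vehicle replicate 2, siNON dex replicate 4 or siNON vehicle replicate 3 (log2 0.44 to 0.63, adjusted p 0.00741 to 0.049), or with DESeq2, a fit of only the compared groups or both deviating siNON libraries left out (log2 0.44 to 0.60, adjusted p 0.000737 to 0.044). PREPL, which overlaps SLC3A1 on the opposite strand, had 735% as many reads, and whether any of them entered the SLC3A1 count was not determined.

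The cationic carriers of arginine, lysine and ornithine, and the exchangers of alanine, serine and cysteine, fell with hormone or were set apart by depletion. SLC7A2 (CAT2, chromosome 8, 17354597 to 17428077) stood at 63.3, 57.5, 60.5 and 60.98 CPM in siBCOR dex, against 107, 72.96, 105 and 90.3 CPM in siBCOR vehicle. It stood at 48.6, 43.8, 42.1 and 48.9 CPM in siNON dex, against 71.3, 83.9, 93.8 and 69.4 CPM in siNON vehicle. Treatments did not overlap in either kind of cell (log2 -0.63 ± 0.11, adjusted p = 0.000479 in siBCOR cells, log2 -0.80 ± 0.11, adjusted p = 4.85e-05 in siNON cells). With dexamethasone SLC7A2 was higher in all 4 siBCOR libraries than in all 4 siNON libraries (log2 0.40 ± 0.11, adjusted p = 0.012), and in vehicle the difference did not pass (log2 0.24 ± 0.11, adjusted p = 0.156) except without siBCOR vehicle replicate 2 (log2 0.34, adjusted p 0.0195). SLC7A1 (CAT1), its more abundant relative, averaged 186 ± 6.47 CPM in siBCOR dex, 235 ± 28.9 in siBCOR vehicle, 258 ± 33.2 in siNON dex and 272 ± 39.6 in siNON vehicle. It was lower in siBCOR dex than in siBCOR vehicle (log2 -0.34 ± 0.11, adjusted p = 0.0323) and than in siNON dex (log2 -0.47 ± 0.11, adjusted p = 0.00366). The first of these calls was lost without siBCOR dex replicate 1, 2, 3 or 4 or siBCOR vehicle replicate 2 or 4 (log2 -0.35 to -0.25, adjusted p 0.0538 to 0.115). In siNON cells SLC7A1 did not pass with hormone (log2 -0.07 ± 0.11, adjusted p = 0.704). After depletion in vehicle it did not pass either (log2 -0.21 ± 0.11, adjusted p = 0.202), but it did without siNON vehicle replicate 3 (log2 -0.34, adjusted p 0.033) or with both deviating siNON libraries left out (log2 -0.34, adjusted p 0.007).

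SLC1A5 (ASCT2, chromosome 19, 47278140 to 47291842), which brings in glutamine in exchange for other neutral amino acids, stood at 308, 324, 321 and 302 CPM in siBCOR dex, against 467, 609, 443 and 512 CPM in siBCOR vehicle. In siNON cells it stood at 452, 460.5, 487 and 414 CPM with dexamethasone, against 642, 665, 518 and 651 CPM with vehicle. The siBCOR dex libraries were the lowest 4 of all 16, and treatments did not overlap in either kind of cell. SLC1A5 fell in siBCOR cells (log2 -0.69 ± 0.09, adjusted p = 2.43e-05) and in siNON cells (log2 -0.45 ± 0.09, adjusted p = 0.00174). It was lower after depletion in dexamethasone (log2 -0.53 ± 0.09, adjusted p = 0.000553) and in vehicle (log2 -0.29 ± 0.09, adjusted p = 0.0424). Its call in vehicle was lost without siBCOR dex replicate 1, 2, 3 or 4, siBCOR vehicle replicate 1, 3 or 4, siNON dex replicate 1 or 2 or siNON vehicle replicate 1, 2 or 4 (log2 -0.29 to -0.23, adjusted p 0.0501 to 0.135), or with upper-quartile scaling or a fit of only the compared groups (log2 -0.31 to -0.28, adjusted p 0.0733 to 0.126).

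Its relative SLC1A4 (ASCT1, chromosome 2, 65216495 to 65251000), a carrier of serine and alanine, stood at 31.6, 28.8, 29.96 and 26.9 CPM in siBCOR dex, against 40.6, 50.9, 36.1 and 40.3 CPM in siBCOR vehicle. It stood at 49.8, 48.01, 55.2 and 43.1 CPM in siNON dex, against 50.96, 71.2, 44.9 and 55.2 CPM in siNON vehicle, and these siNON libraries overlapped. The fall with hormone passed in siBCOR cells (log2 -0.52 ± 0.13, adjusted p = 0.00725) and not in siNON cells (log2 -0.18 ± 0.13, adjusted p = 0.374). The difference between these responses did not pass (log2 -0.34 ± 0.18, adjusted p = 0.286). After depletion SLC1A4 was lower in dexamethasone, by 1.67-fold (log2 -0.74 ± 0.13, adjusted p = 0.000522), and in vehicle (log2 -0.40 ± 0.13, adjusted p = 0.0369). The call in vehicle was lost without siBCOR vehicle replicate 1, 3 or 4 or siNON vehicle replicate 2 or 4 (log2 -0.41 to -0.26, adjusted p 0.0718 to 0.13), or with upper-quartile scaling or a fit of only the compared groups (log2 -0.43 to -0.40, adjusted p 0.0501 to 0.107).

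Of the 3 sodium-coupled glutamate carriers, SLC1A3 rose in both kinds of cell. SLC1A3 (EAAT1, chromosome 5, 36606457 to 36688436) stood at 181, 183, 181 and 202 CPM in siBCOR dex, against 116, 91.6, 112 and 100.4 CPM in siBCOR vehicle. It stood at 149.5, 148, 142 and 166 CPM in siNON dex, against 82.97, 80.98, 96.7 and 82.7 CPM in siNON vehicle. All dexamethasone libraries were above all vehicle libraries, with nearly the same log2 change in siBCOR cells (log2 0.83 ± 0.08, adjusted p = 4.97e-07) and siNON cells (log2 0.82 ± 0.08, adjusted p = 5.27e-07). The difference between the 2 changes did not pass (log2 0.01 ± 0.11, adjusted p = 0.968). Depletion went with higher SLC1A3 in dexamethasone (log2 0.30 ± 0.08, adjusted p = 0.0081), where siBCOR and siNON libraries did not overlap. In vehicle, where they did, it was higher too (log2 0.29 ± 0.08, adjusted p = 0.0187), a call lost without siBCOR vehicle replicate 1 or 3 or siNON vehicle replicate 1, 2 or 4 (log2 0.24 to 0.28, adjusted p 0.0535 to 0.073), or with a fit of only the compared groups (log2 0.29, adjusted p 0.0712).

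SLC1A2 (EAAT2, chromosome 11, 35272752 to 35441105), the main glutamate carrier of astrocytes, was scarce in these cells. It had 2.84, 2.61, 2.97 and 1.98 CPM in siBCOR dex, against 3.67, 1.93, 3.91 and 4.13 CPM in siBCOR vehicle. It had 1.93, 1.73, 1.32 and 2.63 CPM in siNON dex, against 2.87, 3.87, 5.54 and 3.66 CPM in siNON vehicle, which did not overlap. The fall passed in siNON cells (log2 -1.09 ± 0.25, adjusted p = 0.00435) and not in siBCOR cells (log2 -0.38 ± 0.24, adjusted p = 0.262). The interaction did not pass (log2 0.71 ± 0.35, adjusted p = 0.264). After depletion in dexamethasone SLC1A2 did not pass (log2 0.49 ± 0.26, adjusted p = 0.148) except with both deviating siNON libraries left out (log2 0.62, adjusted p 0.0311). SLC1A1 (EAAT3), at 24.5 to 34.5 CPM, was higher with hormone in siNON cells (log2 0.22 ± 0.07, adjusted p = 0.0473). That call, close to the threshold, was lost without siBCOR dex replicate 1, 2, 3 or 4, siBCOR vehicle replicate 3 or 4, siNON dex replicate 1, 2, 3 or 4 or siNON vehicle replicate 1, 2 or 4 (log2 0.19 to 0.24, adjusted p 0.054 to 0.13), or with RLE scaling, no filter on low counts or a fit of only the compared groups (log2 0.19 to 0.22, adjusted p 0.0516 to 0.138). In siBCOR cells SLC1A1 did not pass with hormone (log2 0.19 ± 0.07, adjusted p = 0.0722), but it did without siNON vehicle replicate 3 (log2 0.20, adjusted p 0.031) or with DESeq2 or both deviating siNON libraries left out (log2 0.19 to 0.20, adjusted p 0.0193 to 0.0319). After depletion in vehicle (log2 0.18 ± 0.07, adjusted p = 0.112) it passed without siBCOR vehicle replicate 2 (log2 0.22, adjusted p 0.0425) or with both deviating siNON libraries left out (log2 0.19, adjusted p 0.0483).

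**Figure D4:**
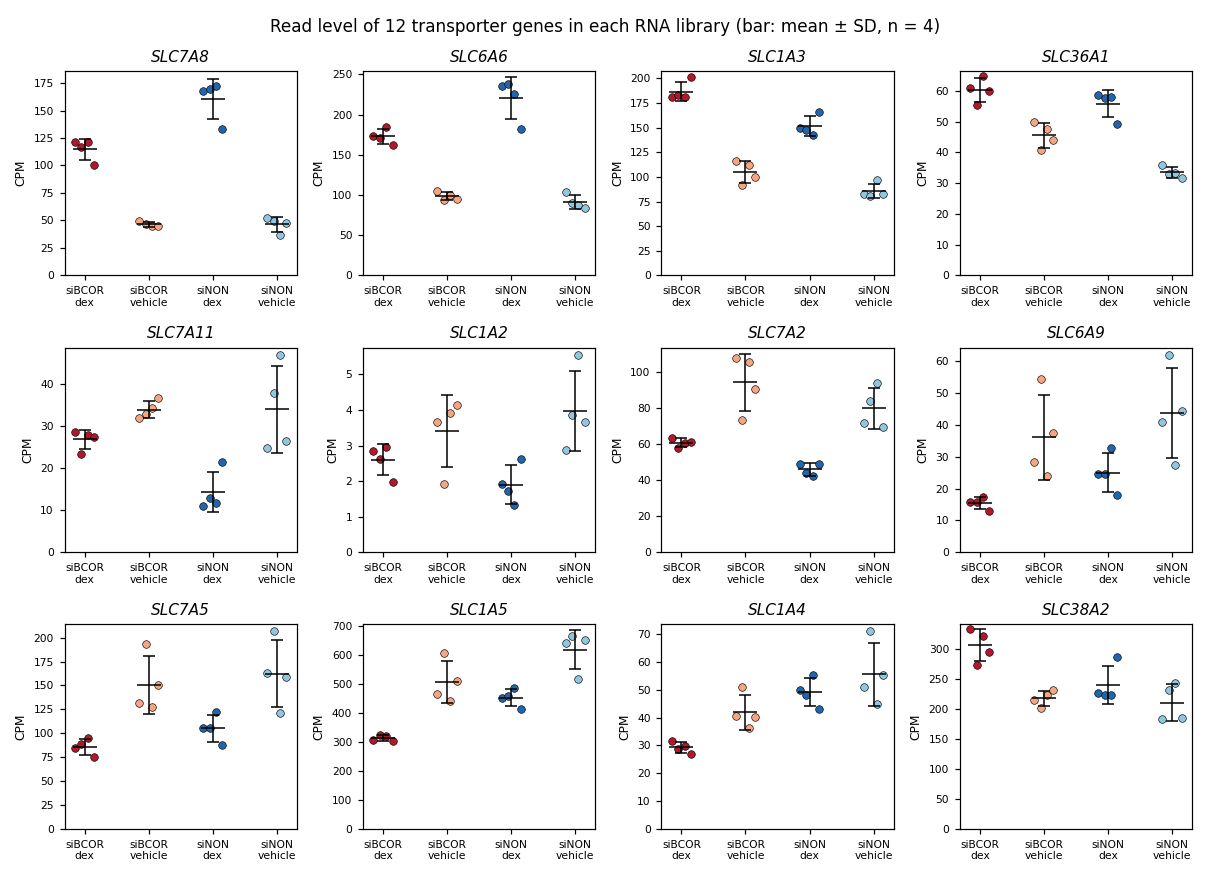
CPM of 12 transporter genes in each of the 16 RNA libraries, with groups in the order siBCOR dex, siBCOR vehicle, siNON dex and siNON vehicle and bars for mean ± SD (n = 4). SLC7A8, SLC6A6, SLC1A3 and SLC36A1 lay higher in dexamethasone than in vehicle in both kinds of cell, and siNON dex replicate 4 stood apart from the other 3 for several genes.

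The SLC6 carriers, which couple uptake to sodium and chloride, had 4 tested members. With hormone SLC6A6 rose and SLC6A9 fell in both kinds of cell and SLC6A15 fell in siNON cells, and after depletion in dexamethasone SLC6A6, SLC6A8 and SLC6A9 were lower. SLC6A6 (chromosome 3, 14444076 to 14530857), the taurine transporter, stood at 174, 171, 185 and 162 CPM in siBCOR dex, against 105, 94.3, 100.0 and 95.3 CPM in siBCOR vehicle. It stood at 235, 238, 226 and 182 CPM in siNON dex, against 104, 90.6, 87.6 and 84.4 CPM in siNON vehicle. Treatments did not overlap, and the rise was 1.76-fold in siBCOR cells (log2 0.81 ± 0.08, adjusted p = 1.09e-06) and 2.40-fold in siNON cells (log2 1.27 ± 0.08, adjusted p = 3.16e-09). In dexamethasone SLC6A6 was lower after depletion (log2 -0.35 ± 0.08, adjusted p = 0.00466), with overlap only through siNON dex replicate 4, and in vehicle the difference did not pass (log2 0.11 ± 0.08, adjusted p = 0.433).

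SLC6A9 (GLYT1, chromosome 1, 44462155 to 44497164), a glycine transporter, varied widely among vehicle replicates. Its siBCOR dex libraries held 15.8, 15.9, 17.5 and 12.9 CPM, against 28.5, 54.3, 23.9 and 37.4 CPM in siBCOR vehicle. Its siNON dex libraries held 24.6, 24.7, 32.8 and 17.9 CPM, against 40.97, 61.8, 27.5 and 44.3 CPM in siNON vehicle. The siBCOR dex libraries were the lowest 4 of all. In both vehicle groups replicate 2 was highest and replicate 3 lowest. SLC7A5, SLC1A5, SLC1A4, SLC43A1, SLC7A1 and SLC3A2 had the same order, while SLC36A1 and SLC7A2 were among the members that did not. The source of this shared order was not tested. SLC6A9 fell 2.32-fold with hormone in siBCOR cells (log2 -1.21 ± 0.25, adjusted p = 0.00192). It also fell in siNON cells (log2 -0.80 ± 0.25, adjusted p = 0.0302), where the call was lost without siNON dex replicate 1, 2 or 4 or siNON vehicle replicate 2 or 4 (log2 -0.79 to -0.58, adjusted p 0.0584 to 0.125), or with a fit of only the compared groups (log2 -0.79, adjusted p 0.0503). After depletion it was lower in dexamethasone (log2 -0.69 ± 0.25, adjusted p = 0.0403), a call lost without siBCOR dex replicate 1, 2, 3 or 4, siBCOR vehicle replicate 4 or siNON dex replicate 1, 2 or 3 (log2 -0.75 to -0.53, adjusted p 0.05004 to 0.141). CCDC24, which overlaps SLC6A9 on the opposite strand, had 18.8% as many reads.

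SLC6A8 (chromosome X, 152953752 to 152962048), the creatine transporter, changed with depletion. It stood at 109.7, 111, 124 and 103 CPM in siBCOR dex, against 162, 176, 172 and 134 CPM in siNON dex. In vehicle it stood at 134, 129, 127 and 128 CPM in siBCOR cells, against 179, 163, 140.3 and 165 CPM in siNON cells. siBCOR libraries lay below siNON libraries in both media, and the difference passed in dexamethasone (log2 -0.53 ± 0.09, adjusted p = 0.00032) and in vehicle (log2 -0.32 ± 0.09, adjusted p = 0.0173). The vehicle call was lost without siNON vehicle replicate 1 (log2 -0.27, adjusted p 0.0646). Hormone did not change it past the threshold (log2 -0.22 ± 0.09, adjusted p = 0.0802 in siBCOR cells, log2 -0.01 ± 0.09, adjusted p = 0.971 in siNON cells), but in siBCOR cells it passed without siBCOR dex replicate 3 or siNON dex replicate 4 (log2 -0.27 to -0.22, adjusted p 0.0312 to 0.0494), or with a fit of only the compared groups or both deviating siNON libraries left out (log2 -0.22 to -0.21, adjusted p 0.0104 to 0.0201). A near copy, SLC6A10P, held 478 counts over all libraries. SLC6A15, a carrier of branched-chain amino acids and proline at 37.98 to 57.8 CPM, was lower with hormone in siNON cells (log2 -0.31 ± 0.08, adjusted p = 0.0122), a call lost with a fit of only the compared groups (log2 -0.30, adjusted p 0.05003). In siBCOR cells, where its dexamethasone libraries were below its vehicle libraries, it was just over the threshold (log2 -0.23 ± 0.08, adjusted p = 0.0512). There it passed without siBCOR vehicle replicate 2, siNON dex replicate 4 or siNON vehicle replicate 3 or 4 (log2 -0.27 to -0.22, adjusted p 0.029 to 0.0419), or with RLE scaling, upper-quartile scaling, DESeq2, no filter on low counts, a fit of only the compared groups or both deviating siNON libraries left out (log2 -0.27 to -0.22, adjusted p 0.0113 to 0.0393).

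Among the 6 tested SLC38 carriers of glutamine and other small neutral amino acids, SLC38A2 passed with hormone in siBCOR cells, and 4 passed after depletion. SLC38A2 (SNAT2), which cells raise when amino acids run short, stood at 332, 273, 322 and 295 CPM in siBCOR dex, against 214, 202, 223 and 231 CPM in siBCOR vehicle. It stood at 226, 223, 223 and 287 CPM in siNON dex, against 183, 231, 242 and 185 CPM in siNON vehicle. It rose in siBCOR cells (log2 0.49 ± 0.10, adjusted p = 0.00181), did not pass in siNON cells (log2 0.19 ± 0.10, adjusted p = 0.233), and was higher after depletion in dexamethasone (log2 0.35 ± 0.10, adjusted p = 0.0138). The difference between its responses did not pass (log2 0.30 ± 0.14, adjusted p = 0.259). SLC38A9 (chromosome 5, 54921673 to 55008163), a lysosomal arginine sensor of the mTORC1 pathway, stood at 30.6, 31.6, 32.6 and 37.4 CPM in siBCOR dex, against 20.4, 22.3, 19.8 and 29.3 CPM in siNON dex, with no overlap (log2 0.53 ± 0.14, adjusted p = 0.0103). In vehicle it stood at 28.2, 21.02, 32.6 and 25.3 CPM in siBCOR cells, against 20.9, 20.9, 28.8 and 21.5 CPM in siNON cells (log2 0.22 ± 0.15, adjusted p = 0.338). With hormone in siBCOR cells it did not pass (log2 0.30 ± 0.14, adjusted p = 0.139) except with both deviating siNON libraries left out (log2 0.31, adjusted p 0.0209). SLC38A1 (SNAT1) averaged 276 ± 8.52 CPM in siBCOR dex and 212 ± 37.6 CPM in siNON dex (log2 0.38 ± 0.13, adjusted p = 0.0257), a call lost without siBCOR dex replicate 1, 3 or 4 or siNON dex replicate 1, 2 or 3 (log2 0.33 to 0.38, adjusted p 0.0526 to 0.0815). With hormone in siNON cells SLC38A1 did not pass (log2 -0.27 ± 0.13, adjusted p = 0.169), but it did without siNON dex replicate 4 (log2 -0.40, adjusted p 0.0167) or with both deviating siNON libraries left out (log2 -0.30, adjusted p 0.0329). SLC38A7, a lysosomal glutamine carrier, was higher after depletion in vehicle (log2 0.36 ± 0.08, adjusted p = 0.00424), at 20.7 ± 1.82 CPM in siBCOR cells and 16.1 ± 0.363 CPM in siNON cells. SLC38A6, at 5.26 to 9.53 CPM, and SLC38A10, at 50.8 to 71.6 CPM, passed in no comparison. With hormone in siBCOR cells SLC38A6 (log2 0.28 ± 0.13, adjusted p = 0.122) did pass with both deviating siNON libraries left out (log2 0.29, adjusted p 0.032). TRMT5 overlaps SLC38A6 with 443% as many reads, and whether any of them entered the SLC38A6 count was not determined.

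SLC36A1 (PAT1, chromosome 5, 150827157 to 150871942), a proton-coupled carrier of glycine, alanine and proline in lysosomes and at the cell surface, rose with hormone and was higher after depletion in vehicle. It stood at 60.99, 55.4, 64.9 and 59.9 CPM in siBCOR dex, against 49.8, 40.8, 47.6 and 43.98 CPM in siBCOR vehicle. It stood at 58.5, 57.8, 57.9 and 49.3 CPM in siNON dex, against 36.03, 33.1, 33.3 and 31.6 CPM in siNON vehicle. Treatments did not overlap (log2 0.40 ± 0.08, adjusted p = 0.000961 in siBCOR cells, log2 0.74 ± 0.08, adjusted p = 1.44e-06 in siNON cells). In vehicle every siBCOR library was above every siNON library (log2 0.44 ± 0.08, adjusted p = 0.00118), and in dexamethasone the difference did not pass (log2 0.11 ± 0.08, adjusted p = 0.271). Its relative SLC36A4, at 16.2 to 28.9 CPM, passed in no comparison. In siBCOR cells its 4 dexamethasone libraries were above its 4 vehicle libraries (log2 0.37 ± 0.16, adjusted p = 0.114), and it passed there without siNON vehicle replicate 3 (log2 0.38, adjusted p 0.0406) or with a fit of only the compared groups or both deviating siNON libraries left out (log2 0.37 to 0.38, adjusted p 0.00666 to 0.0236). After depletion in dexamethasone (log2 0.32 ± 0.16, adjusted p = 0.126) it passed without siNON dex replicate 4 (log2 0.50, adjusted p 0.0103) or with both deviating siNON libraries left out (log2 0.46, adjusted p 0.00173).

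SLC43A1 (LAT3, chromosome 11, 57252004 to 57283192), which lets leucine and phenylalanine flow down their gradient, fell with hormone as SLC7A5 did. It stood at 9.96, 10.8, 8.59 and 10.6 CPM in siBCOR dex, against 13.7, 20.3, 13.4 and 17.4 CPM in siBCOR vehicle, with no overlap (log2 -0.70 ± 0.15, adjusted p = 0.00306). It stood at 11.4, 10.6, 13.8 and 9.81 CPM in siNON dex, against 15.2, 20.5, 13.2 and 17.4 CPM in siNON vehicle (log2 -0.53 ± 0.15, adjusted p = 0.0193), where replicate 3 of each treatment overlapped. The siNON call was lost without siNON dex replicate 2 or siNON vehicle replicate 2 (log2 -0.50 to -0.42, adjusted p 0.061 to 0.0772). SLC43A2 (LAT4), at 10.4 to 15.4 CPM, passed in no comparison, but after depletion in dexamethasone (log2 -0.17 ± 0.10, adjusted p = 0.16) it passed with both deviating siNON libraries left out (log2 -0.27, adjusted p 0.0165). In vehicle (log2 -0.17 ± 0.10, adjusted p = 0.246) it passed with both deviating siNON libraries left out (log2 -0.28, adjusted p 0.0331).

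The monocarboxylate family gave few calls. SLC16A1 (MCT1), the main proton-linked lactate and pyruvate carrier here, averaged 179.8 ± 4.55 CPM in siBCOR dex and 212 ± 30.3 CPM in siBCOR vehicle (log2 -0.24 ± 0.12, adjusted p = 0.18), and 169 ± 31.7 CPM in siNON dex and 233 ± 34.4 CPM in siNON vehicle (SD, n = 4 each). Its fall in siNON cells (log2 -0.46 ± 0.12, adjusted p = 0.0135) was lost without siNON dex replicate 3 (log2 -0.38, adjusted p 0.0536). In siBCOR cells it did not pass except with both deviating siNON libraries left out (log2 -0.23, adjusted p 0.0274). SLC16A3 (MCT4), the lactate exporter of glycolytic cells, was scarce, with 0.985, 0.671, 0.959 and 0.835 CPM in siBCOR dex, against 1.21, 1.64, 1.32 and 1.18 CPM in siNON dex. In vehicle it had 0.394, 1.06, 0.989 and 1.11 CPM in siBCOR cells, against 1.51, 1.69, 1.40 and 1.53 CPM in siNON cells. It was lower after depletion in dexamethasone (log2 -0.65 ± 0.23, adjusted p = 0.036) and in vehicle (log2 -0.81 ± 0.23, adjusted p = 0.0209), on a mean of 24.9 and 27.0 counts per library. The dexamethasone call was lost without siBCOR dex replicate 2 or 4 or siNON dex replicate 1, 2 or 3 (log2 -0.70 to -0.53, adjusted p 0.052 to 0.122), and the vehicle call without siBCOR vehicle replicate 1 or siNON vehicle replicate 2 (log2 -0.76 to -0.53, adjusted p 0.05003 to 0.0788), or with a fit of only the compared groups (log2 -0.81, adjusted p 0.0749). SLC16A10 (TAT1), a carrier of aromatic amino acids at 21.9 to 27.9 CPM, passed in no comparison.

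Of the mitochondrial carriers, SLC25A15, which moves ornithine for the urea cycle, averaged 73.5 ± 3.90 CPM in siBCOR dex, 85.8 ± 6.01 in siBCOR vehicle, 76.5 ± 5.25 in siNON dex and 73.7 ± 5.84 in siNON vehicle. It was lower with hormone in siBCOR cells (log2 -0.22 ± 0.07, adjusted p = 0.0356), a call lost without siBCOR dex replicate 2, 3 or 4 or siBCOR vehicle replicate 1 (log2 -0.23 to -0.17, adjusted p 0.0655 to 0.115). It was higher after depletion in vehicle (log2 0.22 ± 0.07, adjusted p = 0.0476), and this call was lost without siBCOR dex replicate 1, 2, 3 or 4, siBCOR vehicle replicate 1, 3 or 4, siNON dex replicate 1, 2 or 3 or siNON vehicle replicate 1, 3 or 4 (log2 0.11 to 0.24, adjusted p 0.0527 to 0.308), or with RLE scaling, upper-quartile scaling, DESeq2, no filter on low counts, a fit of only the compared groups or both deviating siNON libraries left out (log2 0.11 to 0.22, adjusted p 0.0902 to 0.182). TPTE2P5, which overlaps SLC25A15, had 10.9% as many reads. SLC25A22, a glutamate carrier at 20.1 to 30.6 CPM, passed in no comparison.

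Whether the hormone response of a transporter differed between siBCOR and siNON cells was tested as an interaction, and none of the 33 members passed by edgeR's test. An unadjusted p under 0.05 was found for 5 members, where 19.2% of all genes had one, the smallest adjusted p of a member was 0.173, and DESeq2 called 0 members. Among these 5, the siBCOR response minus the siNON response was log2 0.92 ± 0.28, adjusted p = 0.195 for SLC7A11, log2 -0.49 ± 0.15, adjusted p = 0.195 for SLC7A8, log2 -0.45 ± 0.12, adjusted p = 0.173 for SLC6A6, log2 -0.33 ± 0.11, adjusted p = 0.211 for SLC36A1 and log2 -0.28 ± 0.10, adjusted p = 0.223 for SLC25A15. These results rest on siNON dex replicate 4. In that library SLC7A8 and SLC7A11 lay between the other siNON dex libraries and the siBCOR dex libraries, and SLC6A6 and SLC38A2 lay within the range of siBCOR dex. BCOR itself was at 70.6 CPM there, against 96.8 to 105.9 CPM in the other siNON dex libraries and 13.8 to 15.5 CPM in siBCOR dex, and the part of this in the transporter values was not tested.

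Without siNON dex replicate 4 the interaction passed for 6 members, where 15.3% of all genes then passed. Of these, SLC7A8 (log2 -0.57 ± 0.13, adjusted p = 0.0281), SLC6A6 (log2 -0.53 ± 0.10, adjusted p = 0.0211) and SLC36A1 (log2 -0.39 ± 0.10, adjusted p = 0.0314) rose less with hormone in siBCOR cells. SLC38A2 (log2 0.40 ± 0.13, adjusted p = 0.0463) rose more there. SLC7A11 (log2 1.17 ± 0.23, adjusted p = 0.0251) fell less in siBCOR cells, at log2 -0.34 against -1.26 in siNON cells with all libraries. SLC25A15 (log2 -0.32 ± 0.10, adjusted p = 0.0401) fell in siBCOR cells, at log2 -0.22 against 0.05 in siNON cells with all libraries. Without siNON vehicle replicate 3 as well, SLC7A8, SLC7A11, SLC6A6 and SLC36A1 passed, where 10.8% of all genes did, with SLC7A11 at log2 0.98 ± 0.17, adjusted p = 0.0115 and SLC7A8 at log2 -0.46 ± 0.10, adjusted p = 0.0187. Leaving out both libraries raised the count of members that changed with hormone in siBCOR cells to 22, 9 higher and 13 lower, where 34.2% of all genes then passed. The count after depletion in vehicle was 11 and that in dexamethasone 20, where 24.3% and 53.8% of all genes passed, and the count with hormone in siNON cells was 15, where 20.7% did.

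BCOR peaks lay within 50 kb of the chosen start of 18 of the 34 members, where 54.3% of all tested genes had one. The authors gave 3055 dex-enriched, 267 vehicle-enriched and 8587 shared peaks over both treatments, not per library, so peaks carry no replicate error here. Shared peaks lay near 16 members (47.8% of all tested genes), dex-enriched peaks near 5 (13.6%) and vehicle-enriched peaks near 0 (2.74%). Within 10 kb, dex-enriched peaks lay near 0 members (4.14% of all tested genes), and within 100 kb near 7 (23.5%). The shares of members within 50 kb are near the background for any peak, for shared and for dex-enriched peaks, so none of these counts is read as a result about the members. The 5 members with a dex-enriched peak were SLC1A3, with 2 such peaks at 34.3 kb upstream and 35.8 kb downstream of its start, SLC6A6 (22.8 kb upstream), SLC7A8 (33.8 kb downstream, inside the gene, with a shared peak 3.42 kb upstream), SLC7A1 (13.4 kb downstream, inside the gene) and SLC38A2 (30.8 kb upstream). With hormone 4 of the 5 rose and SLC7A1 fell in siBCOR cells, and SLC1A3, SLC7A8 and SLC6A6 rose in siNON cells while SLC38A2 and SLC7A1 did not pass. Of all 2228 tested genes with a dex-enriched peak in this window, 23.9% rose and 11.1% fell in siBCOR cells, and 25.2% rose and 7.76% fell in siNON cells. Of the 28 tested members without one, 1 rose and 8 fell in siBCOR cells, where 8.41% of all genes without one rose and 12.8% fell. In siNON cells 2 of these members rose and 9 fell, where 8.44% of such genes rose and 8.78% fell. The relation of peaks to hormone response was not tested.

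SLC6A6 stood out by number, with 10 peaks within 50 kb, 1 of them dex-enriched and 9 shared. Counting SLC6A6 itself, 11 tested genes (0.0669%) had at least as many peaks. The SLC6A6 peaks lay 45.9, 40.4, 30.1 and 22.8 kb upstream of the start and at 20.9, 22.4, 28.1, 29.3, 35.7 and 37.0 kb downstream, inside the gene. Peaks of 7 members came within 1 kb of the start, where 20.3% of tested genes had such a peak, and all 7 were shared peaks. They were those of SLC25A15 (4 bases), SLC1A3 (244), SLC16A1 (258), SLC38A10 (325), SLC43A2 (494), SLC6A9 (636) and SLC1A4 (702). The SLC25A15 peak covered hg19 chr13:41363551-41363885, and that of SLC1A4 chr2:65215475-65215793. The genes without a peak in the window included SLC7A11, whose nearest lay 574459 bases away, SLC36A1 (100301 bases) and SLC7A2 (177906 bases), each of which changed with hormone in siNON cells. Of the 15 tested members without a peak, 2 rose and 3 fell there, where 10.7% of all genes rose and 8.64% fell. Of the 18 with a peak, 3 rose and 6 fell, and the shares of all genes were not split by a peak of any class. Of the 16 members with a shared peak, 3 rose and 6 fell, where 11.6% of all genes with one rose and 9.72% fell. Of the 17 tested members without a shared peak, 2 rose and 3 fell, where 9.86% of such genes rose and 7.66% fell.

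**Figure D5:**
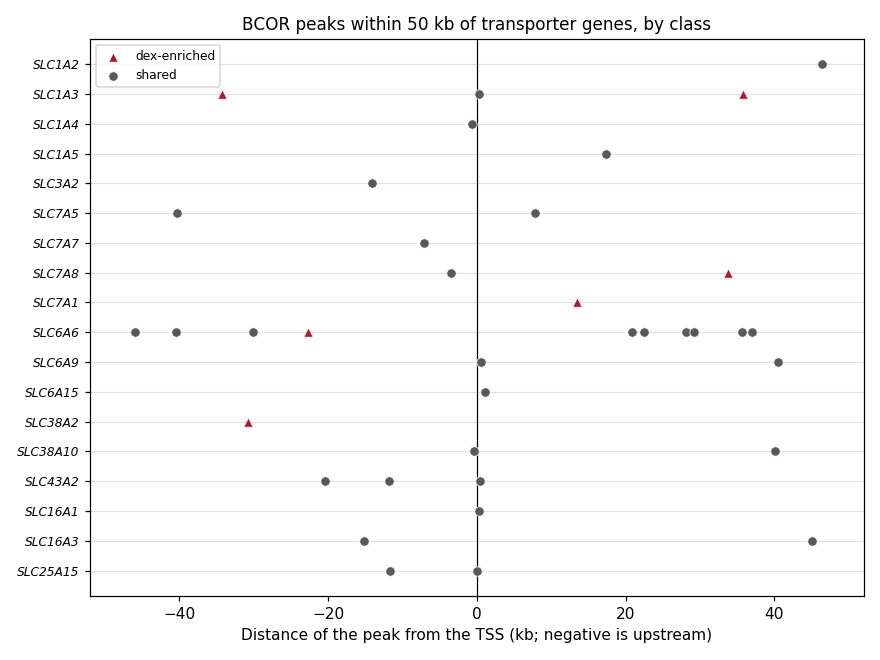
Position of the 37 BCOR peaks within 50 kb of a transporter gene's start site, in kb (negative is upstream), for the 18 members with such a peak, with dex-enriched peaks as red triangles and shared peaks as grey circles. SLC6A6 has 10 peaks, and 5 members have a dex-enriched peak.

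Other transporters of amino acids and monocarboxylates were read from a list of 49 genes, of which 34 were tested. With hormone 5 rose and 2 fell in siBCOR cells, and 7 rose and 1 fell in siNON cells. These 7 and 8 of 34 genes are near the 23.0% and 19.4% of all genes that passed. SLC6A19, which takes up neutral amino acids in kidney and gut, had 5.76, 4.38, 5.07 and 4.64 CPM in siBCOR dex and 13.2, 13.8, 12.5 and 10.2 CPM in siNON dex, and 0 counts in all 8 vehicle libraries. SLC38A11 (log2 2.94 ± 0.22, adjusted p = 1.98e-08 in siBCOR cells, log2 3.08 ± 0.27, adjusted p = 1.05e-07 in siNON cells) and the mitochondrial carriers SLC25A18, of glutamate (log2 2.18 ± 0.16, adjusted p = 1.36e-08 and log2 2.60 ± 0.16, adjusted p = 1.07e-09), and SLC25A29, of basic amino acids (log2 0.93 ± 0.06, adjusted p = 6.27e-09 and log2 1.01 ± 0.06, adjusted p = 1.84e-09), rose in both. After depletion 7 were higher and 6 lower in dexamethasone, and 2 higher and 3 lower in vehicle, near the 39.5% and 17.1% of all genes. The medians of the list were -0.02 with hormone in siBCOR cells, -0.05 in siNON cells, -0.01 after depletion in dexamethasone and 0.06 in vehicle, all log2. SLC6A19 was among those lower in dexamethasone (log2 -1.32 ± 0.12, adjusted p = 3e-05), as were the glutamine carrier SLC38A3 (log2 -0.83 ± 0.15, adjusted p = 0.000641), the neuronal carrier SLC6A17 (log2 -0.76 ± 0.14, adjusted p = 0.000711) and the arginine carrier SLC7A3 (log2 -0.85 ± 0.16, adjusted p = 0.0012).

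The list of ATF4 and amino acid synthesis genes held 32 genes, all tested. With hormone 1 rose and 16 fell in siBCOR cells (median log2 -0.31), and 2 rose and 6 fell in siNON cells (median -0.16), where 12.5% and 8.64% of all genes fell. After depletion 1 was higher and 16 lower in dexamethasone (median -0.29), and 2 higher and 7 lower in vehicle (median -0.13), where 18.8% and 8.23% of all genes were lower. The secreted STC2 (log2 -1.22 ± 0.13, adjusted p = 1.51e-06 in siBCOR cells, log2 -1.02 ± 0.13, adjusted p = 1.15e-05 in siNON cells), the stress factor DDIT3 (log2 -0.80 ± 0.12, adjusted p = 6.21e-05 and log2 -0.79 ± 0.12, adjusted p = 6.8e-05) and TRIB3, a pseudokinase that restrains ATF4 (log2 -0.74 ± 0.13, adjusted p = 0.000441 and log2 -0.64 ± 0.13, adjusted p = 0.00136), fell in both. The transaminase GOT1 rose in both (log2 0.36 ± 0.07, adjusted p = 0.000727 and log2 0.49 ± 0.07, adjusted p = 2.87e-05). Over the alternatives, 12 to 20 fell with hormone in siBCOR cells and 3 to 7 in siNON cells, and 14 to 22 were lower after depletion in dexamethasone and 3 to 12 in vehicle. BCAT2, the mitochondrial branched-chain transaminase, was lower after depletion in dexamethasone (log2 -1.09 ± 0.07, adjusted p = 4.86e-08) and in vehicle (log2 -0.88 ± 0.07, adjusted p = 7.42e-07), and the proline enzyme PYCR1 was too (log2 -0.94 ± 0.13, adjusted p = 0.000108 and log2 -0.73 ± 0.13, adjusted p = 0.00129). In the whole list the interaction passed for GLUL, glutamine synthetase, alone (log2 -0.47 ± 0.09, adjusted p = 0.0472), which fell with hormone in siBCOR cells (log2 -0.41 ± 0.06, adjusted p = 7.77e-05) and did not pass in siNON cells (log2 0.06 ± 0.06, adjusted p = 0.577). The interaction of GLUL was lost without siBCOR dex replicate 1, 2, 3 or 4, siBCOR vehicle replicate 1, 2, 3 or 4, siNON dex replicate 1, 2 or 3 or siNON vehicle replicate 1, 2, 3 or 4 (log2 -0.51 to -0.40, adjusted p 0.0502 to 0.169), or with RLE scaling, upper-quartile scaling or no filter on low counts (log2 -0.51 to -0.46, adjusted p 0.104 to 0.163).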

How the data were processed

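RNA was measured in 16 libraries (4 groups of 4, called biological replicates in the labels' protocols, where the series' design text names 3), and BCOR binding in 2 ChIP libraries per treatment. The RNA table holds raw counts per RefSeq transcript over exons with no depth adjustment, made by the authors with HOMER, per the file headers, on hg19. The strand setting is not given in the sources used here, though column names carry the word flip. The deposited peak lists hold a score of 0 for every peak, which was not used. FastQC, Trimmomatic, TopHat2, Bowtie 0.12.9, HOMER 4.10.3 and bedtools are named in the submitters' processing notes.

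Of 65572 transcripts, 134 had no gene name (0.0664% of counts) and were left out, and each of 27896 symbols kept its transcript with the most reads. edgeR 4.0.16 (R 4.3.3, limma 3.58.1) was used with its filter on low counts, TMM scaling and quasi-likelihood tests on the 4 group means, with Benjamini-Hochberg adjustment over 16432 genes for each of 5 comparisons and a threshold of 0.05. CPM uses the TMM-scaled library size, and ± after a log2 fold change is its SE. The procedure was also run on simulated counts. These had the same spread for every gene and no deviating library, so that run does not show how the procedure handles such libraries. Python 3.11.15 with pandas 2.3.3, numpy 2.4.6 and matplotlib 3.10.9 was used for peaks, promoters and figures. Peaks were assigned by the distance of their nearest edge to the start of the chosen transcript, within 50 kb.

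Values in every library were to be given for members called with an absolute log2 fold change of at least 0.5 and a mean of at least 50 counts. SLC38A2 and SLC16A3 were added after their values were seen. Up to 4 called genes per context list and comparison, those with the smallest adjusted p, were named, besides BCOR and NR3C1. The members and lists were chosen with earlier results of these data known.

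Alternatives were RLE and upper-quartile scaling, DESeq2 1.42.0, no filter, a replicate block, only the compared groups, the longest transcript, each library left out, peak windows of 10 and 100 kb and any start of a gene. A robust estimate of the spread and a fit that leaves out both siNON vehicle replicate 3 and siNON dex replicate 4 were added after seeing the data. No 2 libraries of a group agreed within sampling noise. Replicate numbers did not pair libraries consistently across groups, although replicate 3 of siNON vehicle and of siBCOR vehicle deviated alike (correlation of deviations 0.502).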

Additional observations from a re-analysis of the deposited data

Results flagged for a closer look

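Of 132 sets of 4 replicates, 12 had a library far from the other 3, and chance gives about 1 in 20. Of these, 6 concern siNON dex replicate 4, 4 concern siNON vehicle replicate 3, and siBCOR dex replicate 4 and siBCOR vehicle replicate 1 have 1 each. In siNON dex replicate 4, SLC7A8 was at 134 CPM (168 to 172 CPM in the other 3 libraries), SLC36A1 at 49.3 CPM (57.8 to 58.5) and SLC25A15 at 68.6 CPM (79.0 to 79.3). SLC38A1 was at 268 CPM there (189.5 to 199), SLC38A2 at 287 CPM (223 to 226) and SLC36A4 at 28.9 CPM (17.7 to 19.4). In siNON vehicle replicate 3, SLC1A3 was at 96.7 CPM (81.0 to 83.0), SLC3A1 at 17.7 CPM (10.6 to 11.5), SLC38A9 at 28.8 CPM (20.9 to 21.5) and SLC1A5 at 518 CPM (642 to 665). SLC1A3 was at 202 CPM in siBCOR dex replicate 4 (181 to 183), and SLC25A15 at 94.8 CPM in siBCOR vehicle replicate 1 (81.7 to 83.5). The source of these deviations was not tested.

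The hormone response of GLUL, glutamine synthetase, differed between siBCOR and siNON cells in the test of the difference itself, at log2 -0.47 ± 0.09, adjusted p = 0.0472 by edgeR's quasi-likelihood test. GLUL fell with hormone in siBCOR cells and did not pass in siNON cells. The call was lost without siBCOR dex replicate 1, 2, 3 or 4, siBCOR vehicle replicate 1, 2, 3 or 4, siNON dex replicate 1, 2 or 3 or siNON vehicle replicate 1, 2, 3 or 4 (log2 -0.51 to -0.40, adjusted p 0.0502 to 0.169), or with RLE scaling, upper-quartile scaling or no filter on low counts (log2 -0.51 to -0.46, adjusted p 0.104 to 0.163).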

How the results depend on the processing

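No called value changed direction under any alternative run. Over all alternatives, 2783 values of called members and named context genes stayed past the threshold and 166 did not, and 115 counts of members stayed within 1.5 times the main one and 12 did not. With siNON dex replicate 4 left out together with siNON vehicle replicate 3, 22 members passed with hormone in siBCOR cells (34.2% of all genes) and 4 in the interaction (10.8%). After depletion in vehicle, 5 passed with upper-quartile scaling (14.0% of all genes) and 3 in a fit of only the compared groups (9.61%), and the cause was not tested. Leaving out 1 library at a time gave 11 to 17 members with hormone in siBCOR cells (17.5% to 27.4% of all genes), 11 to 14 in siNON cells (15.3% to 24.5%), 11 to 17 after depletion in dexamethasone (25.4% to 49.3%), 3 to 11 in vehicle (10.9% to 20.9%) and 0 to 6 in the interaction (0.0121% to 15.3%). A BCOR peak lay near 11 members within 10 kb (30.5% of tested genes), 20 within 100 kb (69.4%) and 18 for any start. With a replicate block the counts were 14 with hormone in siBCOR cells (22.8% of all genes), 14 in siNON cells (18.4%), 15 after depletion in dexamethasone (39.1%), 8 in vehicle (16.2%) and 0 in the interaction (0.0183%), and GLUL's interaction lost its call (log2 -0.47, adjusted p = 0.068). The replicate numbers did not pair the libraries throughout: over 24 pairs, correlations of deviations ran from -0.526 to 0.502, 6 were over 0.1, and 4 of 16 libraries matched their own number best. The pair at 0.502 was replicate 3 of siNON vehicle and siBCOR vehicle. The pair at -0.526 was replicate 3 of siNON dex and siNON vehicle. Depth limits SLC38A5, which was not tested, and SLC16A3, SLC7A7 and SLC1A2, which had few counts.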

Other observations

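The list of 36 genes that sense amino acids for mTORC1, all tested, held 4 that rose and 2 that fell with hormone in siBCOR cells (median log2 -0.01), and 8 that rose and 2 that fell in siNON cells (median 0.11). The 6 and 10 called genes compare with 23.0% and 19.4% of all genes. The share was below that of all genes in siBCOR cells and above it in siNON cells, by few genes, and neither difference was tested. The lysosomal transcription factor TFEB (log2 0.86 ± 0.09, adjusted p = 1.51e-06 in siBCOR cells, log2 1.07 ± 0.09, adjusted p = 6.37e-08 in siNON cells), the leucine-sensing family member SESN1 (log2 0.81 ± 0.10, adjusted p = 5.45e-06 and log2 0.73 ± 0.10, adjusted p = 1.81e-05) and the arginine sensor CASTOR1 (log2 0.85 ± 0.14, adjusted p = 0.000148 and log2 0.86 ± 0.14, adjusted p = 0.000154) rose in both. After depletion 7 were higher and 11 lower in dexamethasone (median -0.12), and 5 higher and 2 lower in vehicle (median 0.02), where 39.5% and 17.1% of all genes passed. The GTPase RRAGD was higher (log2 0.56 ± 0.07, adjusted p = 2.52e-05 in dexamethasone, log2 0.53 ± 0.07, adjusted p = 9.24e-05 in vehicle), and LAMTOR1, which anchors these GTPases at the lysosome, was lower (log2 -0.55 ± 0.07, adjusted p = 4.52e-05 and log2 -0.35 ± 0.07, adjusted p = 0.00326).

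Of 10 partners of monocarboxylate transport, PDHA1, a subunit of pyruvate dehydrogenase, rose with hormone (log2 0.54 ± 0.05, adjusted p = 8.8e-07 in siBCOR cells, log2 0.68 ± 0.05, adjusted p = 4.08e-08 in siNON cells). In siBCOR cells LDHA, a lactate dehydrogenase subunit, fell (log2 -0.23 ± 0.07, adjusted p = 0.0165), a call lost without siBCOR dex replicate 3 or siBCOR vehicle replicate 1 (log2 -0.19 to -0.17, adjusted p 0.0568 to 0.0602). After depletion in dexamethasone, the carrier chaperone BSG was lower (log2 -0.33 ± 0.08, adjusted p = 0.00645) and its relative EMB higher (log2 0.54 ± 0.20, adjusted p = 0.0409). The call on EMB was lost without siBCOR dex replicate 1, 2, 3 or 4, siBCOR vehicle replicate 4 or siNON dex replicate 1, 2 or 3 (log2 0.41 to 0.56, adjusted p 0.0512 to 0.134). Among 12 regulators, 3 rose and 4 fell with hormone in siBCOR cells and 2 rose and 2 fell in siNON cells, where 23.0% and 19.4% of all genes passed. MYC fell (log2 -2.61 ± 0.10, adjusted p = 2.17e-12 and log2 -2.69 ± 0.10, adjusted p = 1.14e-12), as did the mineralocorticoid receptor gene NR3C2 (log2 -1.08 ± 0.09, adjusted p = 7.31e-08 and log2 -0.96 ± 0.09, adjusted p = 3.77e-07), and KLF15, a known target of GR, rose (log2 1.93 ± 0.09, adjusted p = 2.55e-11 and log2 1.74 ± 0.09, adjusted p = 7.66e-11). After depletion 3 of the regulators were higher and 2 lower in dexamethasone, and 1 was higher in vehicle, where 39.5% and 17.1% of all genes passed. All these genes were read from edgeR's test over 16432 genes, and their relation to the transporter levels was not tested.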
